A study of Mus musculus with 26 samples.

Results

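The complement genes described here are the early classical and alternative pathway proteins, their regulators and the anaphylatoxin receptors, without the C1q chains. The list held 9 genes (C1ra, C2, C3, C4b, Cfb, Serping1, Cd55, C3ar1 and C5ar1), and a probe set was taken for a gene only where the array annotation gave that gene and no other. By this rule 14 of the 45101 probe sets on the array belonged to the list, and they covered 7 of the 9 genes. C2, C3ar1 and Cd55 had 3 probe sets each, C5ar1 had 2, and Cfb, C1ra and Serping1 had 1 each. C3 had no probe set of its own in the annotation used here, and the probe set for C4b was annotated to C4a as well, so neither gene was analysed here. That probe set was 1 of 3 left out because their annotation joined a listed gene to another gene.

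RNA of whole lacrimal glands was hybridised to Affymetrix expression arrays, and every animal was a male of the strain C57BL/6.NOD-Aec1Aec2. This strain is C57BL/6 with the Aec1 and Aec2 regions of NOD origin, which the labels equate with Idd3 and Idd5, and it develops a disease like Sjögren's syndrome. The 26 arrays, labelled as biological replicates, fell into groups aged 4 weeks (n = 4), 8 weeks (n = 6), 12 weeks (n = 6), 16 weeks (n = 5) and 20 weeks (n = 5). The labels call these ages pre-disease, early pre-clinical, first leukocyte influx, early clinical and onset of secretory dysfunction. Every mouse carried both regions and no array of the parent strain was analysed here, so age and disease cannot be told apart.

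Complement is a cascade of plasma and tissue proteases. In the classical pathway, bound C1q activates the proteases C1r and C1s, which cleave C4 and C2 to form an enzyme that splits C3, while in the alternative pathway factor B supplies the protease of the corresponding enzyme. C1 inhibitor and decay-accelerating factor restrain these steps, and the small fragments C3a and C5a act on receptors carried largely by myeloid cells.

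All levels are the deposited log2 values. A level is called near background here when it lies under 4.04, which is 1 log2 unit above the median of the array medians. By that measure most of these genes were weakly expressed. Serping1 lay above the limit on all 26 arrays, C3ar1 on 9, C1ra on 7, C2 on 6, Cd55 on 4, Cfb on 1 and C5ar1 on 0, each read from its brightest probe set. All 7 genes and 10 of the 14 probe sets passed the filter on low values (above the array median on at least 4 arrays). Arrays 16 weeks replicate 4 and 20 weeks replicate 1 stood apart from the rest. Their spread of values was 1.68 and 1.36 log2 (SD over probe sets) against 1.78 to 2.27 on the other arrays, and their correlation with the other arrays of their age was 0.92 and 0.87 against 0.96 to 0.99. The counts of members called, and each member's difference between 20 and 4 weeks, are therefore given with and without this pair.

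Over all 26 arrays, no member passed the test for a difference between ages. The test was limma's moderated F test over 12377 genes with Benjamini-Hochberg adjustment, called at an adjusted p under 0.05, and it called 0 of 7 members where 14.9% of all genes tested were called. At an unadjusted p under 0.05 it counted 3 of 7 members (C3ar1, C2 and Cd55) against 36.9% of all genes. The adjusted p in the limma F test was 0.0785 for C3ar1, 0.115 for C2, 0.135 for Cd55, 0.257 for Serping1, 0.289 for C1ra, 0.312 for C5ar1 and 0.867 for Cfb. Without the pair, limma called C3ar1 alone (adjusted p = 0.0199), 1 of 7 members against 20.8% of all genes. C3ar1 was also called in the F test without 12 weeks replicate 6 alone (adjusted p = 0.0363) and without 20 weeks replicate 1 alone (adjusted p = 0.0193). In these fits 1497 and 2237 of all genes were called. Of the 26 fits that left out 1 array, the other 24 gave it no call (F test adjusted p up to 0.144).

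The comparison of 20 with 4 weeks spans the recorded course of the disease. On all arrays limma called 0 of 7 members, with 3 of 7 (C2, C3ar1 and Serping1) at an unadjusted p under 0.05, and the backgrounds over all genes were 2.21% and 14.6%. Without the pair C2, Serping1 and C3ar1 rose, so that 3 of 7 members were called, all higher at 20 weeks, where 8.25% of all genes were called and 5.82% were called higher. All 7 members had a positive difference on all arrays, and 6 of 7 without the pair. The median difference of the members was 0.53 log2 on all arrays and 0.65 without the pair, beside 0.01 for all genes tested in both fits. Leaving out 20 weeks replicate 1 alone also gave 3 of 7, and leaving out 16 weeks replicate 4 alone gave 1 of 7 (C3ar1), where 722 and 367 of all genes were called. The count stayed at 0 in 22 of the 26 fits that left out 1 array.

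**Figure D1:**
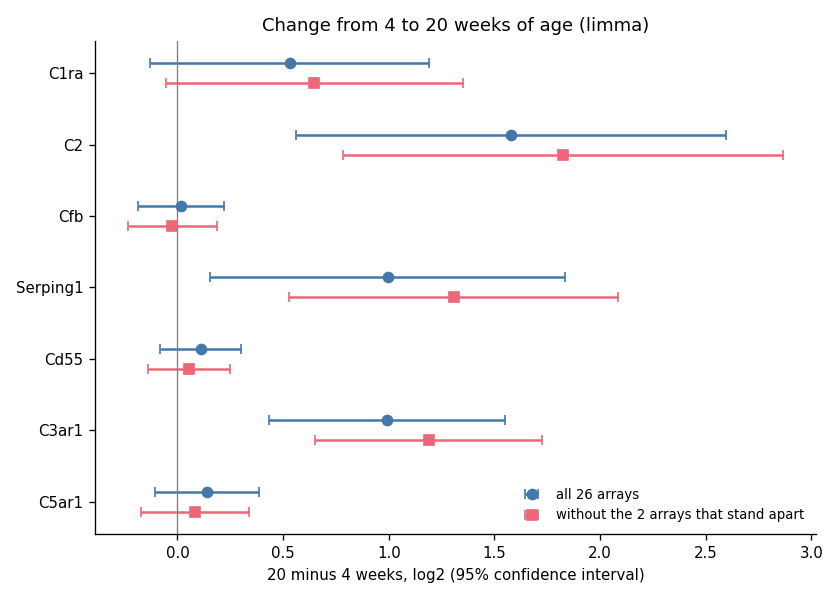
Difference between 20 and 4 weeks (log2, horizontal axis) for each of the 7 genes, with its 95% confidence interval from limma, over all 26 arrays (circles) and without the 2 arrays that stand apart (squares). The differences of C2, Serping1 and C3ar1 lie near or above 1 in both fits, while those of Cfb, Cd55 and C5ar1 lie within 0.15 of 0.

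Comparisons over shorter spans gave no call. From 4 to 8 weeks limma called 0 of 7 members (1.36% of all genes). Serping1 alone had an unadjusted p under 0.05, beside 1748 of the 12377 genes tested. From 4 to 12 weeks limma called 0 of 7 (2.71% of all genes) with 0 unadjusted (2695 of all genes). From 4 to 16 weeks it called 0 of 7 (1.78% of all genes) with 1 unadjusted, C3ar1 (1645 of all genes). The steps from 8 to 12 weeks (0.0162% of all genes), from 12 to 16 weeks (2.98%) and from 16 to 20 weeks (0.0162%) gave 0 of 7 called and 0 unadjusted each. Of all genes 614, 2583 and 1008 had an unadjusted p under 0.05 in these steps. Without the pair limma again called 0 of 7 in each of these comparisons, where the share of all genes called was 4.88% from 4 to 8 weeks, 12.1% from 4 to 12, 7.8% from 4 to 16, 0.0646% from 8 to 12, 4.05% from 12 to 16 and 0.0808% from 16 to 20. The members at an unadjusted p under 0.05 were then Serping1 from 4 to 8 and from 4 to 12 weeks, and C3ar1 from 4 to 16 and from 16 to 20 weeks. In the same order, 2697, 3883, 2449 and 835 of all genes had an unadjusted p under 0.05. These comparisons share arrays, and all those against 4 weeks use the same 4 early arrays.

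**Figure D2:**
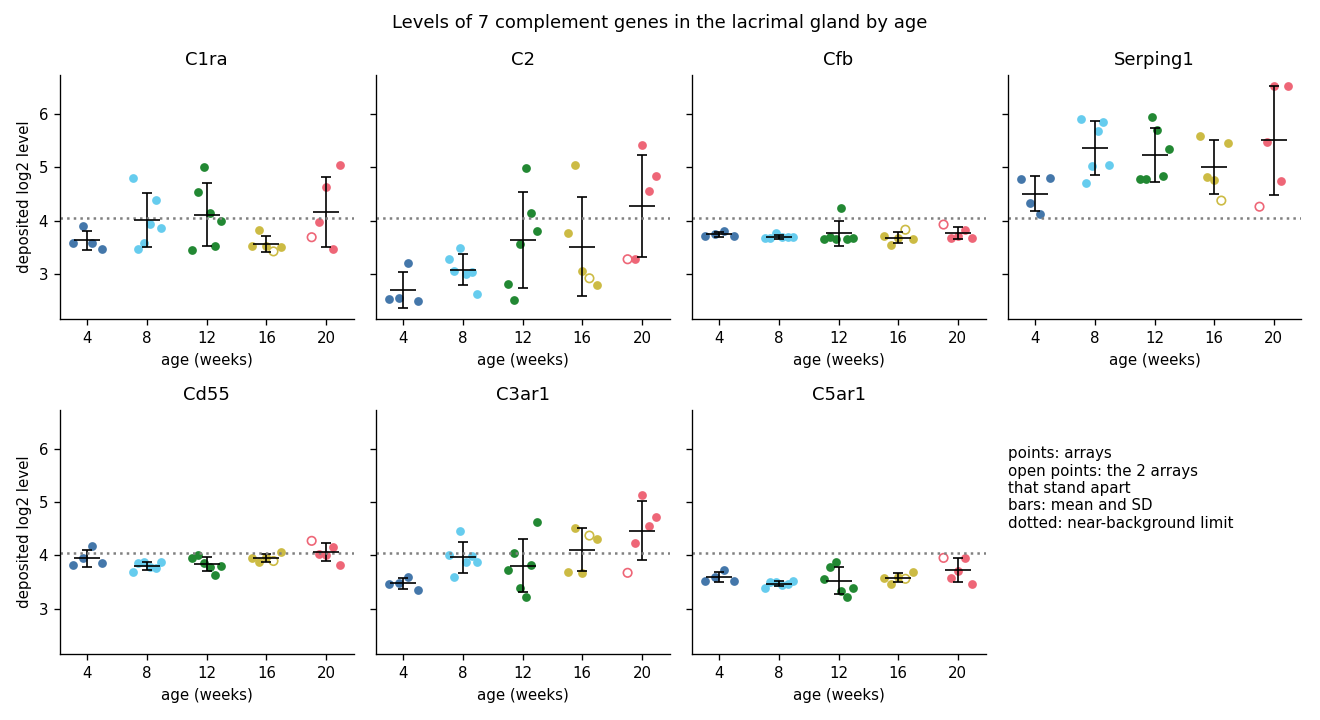
Deposited log2 level (vertical axis) of the brightest probe set of each gene on each array, by age in weeks (horizontal axis), with the mean and SD of each age and the near-background limit of 4.04 as a dotted line. Open points are 16 weeks replicate 4 and 20 weeks replicate 1. Serping1 lies above the limit on every array, and the C2 and C3ar1 arrays at 20 weeks lie above those at 4 weeks.

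Among the proteases, C1ra encodes C1r, the first enzyme of the classical cascade, which cleaves C1s inside the C1 complex. At 4 weeks its levels were 3.46, 3.57, 3.57 and 3.89. At 8 weeks they ran from 3.47 to 4.81 with a median of 3.90, and at 12 weeks from 3.45 to 5.0 with a median of 4.07. At 16 weeks the 5 arrays lay close together and near background, at 3.42, 3.51, 3.52, 3.53 and 3.83. At 20 weeks they spread again, at 3.47, 3.69, 3.96, 4.62 and 5.04. The groups overlapped in every comparison. The difference between 20 and 4 weeks was 0.53 ± 0.32 log2 (SE; 3 of 5 later arrays above every earlier one), with a limma adjusted p of 0.456, and 0.65 ± 0.34 without the pair (adjusted p = 0.294). From 12 to 16 weeks it was -0.55 ± 0.29, and from 16 to 20 weeks 0.60 ± 0.30, neither of which was called (adjusted p = 0.273 and 0.606; -0.51 and 0.68 without the pair, adjusted p = 0.338 and 0.773). Arrays above the near-background limit were thus found at 8, 12 and 20 weeks, and there were none at 4 or 16 weeks.

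The promoter of C1ra is shown because C1ra varied with Serping1 from array to array, as described further on. It runs from 250 bases before the gene's start to 50 after it (RefSeq, GRCm38.p6, plus strand, chr6:124512371-124512670), with matches to searched motifs in capitals.
C1ra: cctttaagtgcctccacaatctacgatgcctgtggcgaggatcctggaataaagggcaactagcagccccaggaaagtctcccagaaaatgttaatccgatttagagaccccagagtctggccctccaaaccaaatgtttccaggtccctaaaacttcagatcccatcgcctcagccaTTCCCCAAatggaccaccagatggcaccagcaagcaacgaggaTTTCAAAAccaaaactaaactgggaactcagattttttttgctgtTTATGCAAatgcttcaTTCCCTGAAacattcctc
Capitals mark 3 matches to a C/EBP type motif (TTNNGNAA, both strands) and, last, 1 match to the interferon gamma-activated sequence (TTCNNNGAA, which reads alike on both strands). These motifs occur in 40.7% and 8.30% of the 32851 promoters of this length in the table, so a match is a description of the letters and not of a binding site. The other motifs searched on both strands, an NF-kB type motif and the core of the interferon-stimulated response element, had no match in this window. The match to the gamma-activated sequence begins at base 33 counted from the gene's start, so it lies after that start. The table held promoters for 4 of the 7 measured genes, C1ra, C3ar1, Cd55 and C5ar1. It held none for Serping1, so the promoters of C1ra and Serping1 cannot be compared here. Those of Cd55 and C5ar1, which also varied together, are not shown.

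C2 encodes the protease of the classical C3 convertase. Its brightest probe set, 1457664_x_at, gave 2.49, 2.53, 2.54 and 3.20 at 4 weeks and 3.27, 3.29, 4.55, 4.83 and 5.41 at 20 weeks. The 2 groups did not overlap, although the lowest array at 20 weeks, at 3.27, lay just above the highest at 4 weeks, at 3.20. In between, the levels ran from 2.62 to 3.49 (median 3.04) at 8 weeks and from 2.51 to 4.995 (median 3.68) at 12 weeks. At 16 weeks they were 2.78, 2.92, 3.05, 3.77 and 5.04, so that 1 array of 5 was high. The difference between 20 and 4 weeks was 1.58 ± 0.49 log2 (95% interval 0.56 to 2.59), higher on 5 of 5 arrays, with a limma adjusted p of 0.0968. Without the pair it was 1.83 ± 0.50, with an adjusted p of 0.0254.

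The probe sets of C2 did not move together. The second, 1441912_x_at, followed the first, with a correlation of deviations from the age means of 0.68 over 26 arrays (Spearman's rho 0.62, permutation adjusted p = 0.0357 and 0.0217 over 10 pairs of probe sets of 1 gene; r = 0.68 without the 2 farthest arrays). Its mean went from 2.25 ± 0.19 at 4 weeks (SD, n = 4) to 3.40 ± 1.22 at 20 weeks (n = 5), a difference of 1.15 ± 0.52 (SE; limma over probe sets, adjusted p = 0.28), and 1.501 ± 0.52 without the pair (adjusted p = 0.0845). The third, 1416051_at, stayed between 3.11 and 3.38 on all 26 arrays. Its difference between 20 and 4 weeks was -0.03 ± 0.06 (adjusted p = 0.826), and -0.05 ± 0.06 without the pair (adjusted p = 0.741). The ending _x_at is Affymetrix's mark for probe sets with probes that may also bind other transcripts, and the differences in C2 were measured by such probe sets and not by the remaining one.

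Cfb, factor B, is the alternative pathway counterpart of C2 and its neighbour in the genome. Its only probe set was near background on 25 of 26 arrays. Levels were 3.70, 3.72, 3.74 and 3.81 at 4 weeks and 3.67, 3.67, 3.70, 3.83 and 3.92 at 20 weeks. The groups overlapped, and the difference was 0.02 ± 0.10 log2 (95% interval -0.19 to 0.22; limma adjusted p = 0.969), and -0.02 ± 0.10 without the pair (adjusted p = 0.944). The exception was 12 weeks replicate 4 at 4.24, where the other 5 arrays of that age lay between 3.65 and 3.69. C2 was high on that array too, at 4.995 in 1457664_x_at and 4.18 in 1441912_x_at, the highest of the 6 arrays at 12 weeks in both. Not all members were high on it. C3ar1 (1442082_at) read 3.23 there, the lowest of all 26 arrays. C5ar1, the brightest probe set of Cd55, C1ra and Serping1 deviated from their means at 12 weeks by -0.20, -0.05, 0.04 and 0.48. The other Cd55 probe sets, 1418762_at at 3.73 and 1443906_at at 3.67, had their highest reading of that age on it. The mean of the B cell marker list (7 genes with a probe set) was 4.51 on this array and at most 2.90 on any array of the other ages, and its part in these values was not tested.

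Of the regulators, Serping1 encodes C1 inhibitor, the serpin that inactivates C1r and C1s. It was the only member above the near-background limit on every array. Its levels were 4.13, 4.34, 4.77 and 4.80 at 4 weeks. They ran from 4.70 to 5.91 (median 5.36) at 8 weeks and from 4.77 to 5.94 (median 5.09) at 12 weeks. At 16 weeks they were 4.37, 4.76, 4.82, 5.46 and 5.59, and at 20 weeks 4.26, 4.74, 5.47, 6.52 and 6.52. The ages overlapped: 5 of 6 arrays at 8 weeks and 3 of 5 at 20 weeks lay above every array at 4 weeks. The difference was 0.86 ± 0.39 log2 between 8 and 4 weeks (limma adjusted p = 0.326) and 1.00 ± 0.41 between 20 and 4 weeks (adjusted p = 0.236), the latter a ratio of 1.99. The lowest array at 20 weeks was replicate 1, the one with the compressed range. Without the pair the difference between 20 and 4 weeks was 1.31 ± 0.37, a ratio of 2.47 (adjusted p = 0.0330), and without 20 weeks replicate 1 alone the adjusted p was 0.0450. That was the only 1 of the 26 fits leaving out 1 array in which Serping1 was called in this comparison.

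Cd55 encodes decay-accelerating factor, a membrane protein that speeds the breakdown of C3 convertases. Its brightest probe set, 1460242_at, lay between 3.64 and 4.27 on all arrays. Its mean level was 3.95 ± 0.16 at 4 weeks (SD, n = 4), 3.80 ± 0.08 at 8 weeks (n = 6), 3.84 ± 0.13 at 12 weeks (n = 6), 3.95 ± 0.07 at 16 weeks (n = 5) and 4.06 ± 0.17 at 20 weeks (n = 5). All ages overlapped, and the difference between 20 and 4 weeks was 0.11 ± 0.09 log2 (95% interval -0.08 to 0.30; limma adjusted p = 0.628), and 0.06 ± 0.09 without the pair (adjusted p = 0.83). The other probe sets of Cd55 were lower, at 3.12 to 4.26 for 1418762_at and 2.59 to 3.67 for 1443906_at, and the latter did not pass the filter.

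Of the receptors, C3ar1 encodes the receptor for C3a and is known as a myeloid gene. Probe set 1442082_at gave 3.35, 3.47, 3.48 and 3.60 at 4 weeks, all near background, and 3.67, 4.24, 4.55, 4.72 and 5.13 at 20 weeks. The 2 groups did not overlap, and the lowest array at 20 weeks was again replicate 1. Levels ran from 3.59 to 4.46 (median 3.93) at 8 weeks and from 3.23 to 4.62 (median 3.77) at 12 weeks. At 16 weeks they were 3.66, 3.68, 4.30, 4.37 and 4.52. The difference between 16 and 4 weeks was 0.63 ± 0.27 log2 and was not called (limma adjusted p = 0.288). The difference between 20 and 4 weeks was 0.99 ± 0.27 log2 (95% interval 0.43 to 1.55), a ratio of 1.99, with a limma adjusted p of 0.0542. Without the pair it was 1.19 ± 0.26, a ratio of 2.28, with an adjusted p of 0.00540. Its call at 20 against 4 weeks also appeared in 4 of the 26 fits that left out 1 array. These left out 12 weeks replicate 4, 12 weeks replicate 6, 16 weeks replicate 4 or 20 weeks replicate 1 (limma adjusted p = 0.0499, 0.0395, 0.0495 and 0.00670). In the same order, 249, 215, 367 and 722 of all genes were called. The other 22 fits gave C3ar1 no call, with a limma adjusted p of up to 0.185. Its other probe sets, 1419482_at at 1.68 to 1.89 and 1419483_at at 2.13 to 3.39, did not pass the filter.

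C2 and C3ar1 were the 2 of 7 members whose arrays at 20 weeks all lay above those at 4 weeks, where this held for 1.58% of all genes tested. Without the pair it was again 2 of 7, where it held for 7.78% of all genes, and between 8 and 4 weeks it was 0 of 7, where it held for 3.34%.

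The promoter of C3ar1 is shown because its probe set had the smallest p in the F test among the members (RefSeq, GRCm38.p6, minus strand, chr6:122856108-122856407, 5′ to 3′ along the gene).
C3ar1: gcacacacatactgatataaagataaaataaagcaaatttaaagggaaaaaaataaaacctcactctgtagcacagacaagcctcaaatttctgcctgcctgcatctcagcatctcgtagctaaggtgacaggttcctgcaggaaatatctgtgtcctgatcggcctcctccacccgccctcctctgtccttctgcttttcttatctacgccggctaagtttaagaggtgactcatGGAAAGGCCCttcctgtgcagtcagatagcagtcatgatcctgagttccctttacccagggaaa
Capitals mark its single match, to the NF-kB type motif (GGG, any 5 bases, then CC; met here on the opposite strand), which 50.8% of all promoters in the table hold. The C/EBP type motif, the gamma-activated sequence and the response element core (GAAA, any 2 bases, then GAAA; in 3.44% of promoters) were not found in this window.

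C5ar1, the receptor for C5a, is best known on neutrophils and macrophages. Both of its probe sets were near background on all 26 arrays. 1439902_at gave 3.51, 3.53, 3.59 and 3.72 at 4 weeks and 3.46, 3.57, 3.71, 3.94 and 3.95 at 20 weeks, which overlapped. The difference was 0.14 ± 0.12 log2 (95% interval -0.11 to 0.39; limma adjusted p = 0.623), and 0.08 ± 0.12 without the pair (adjusted p = 0.797). The neutrophil marker list, which had 8 genes with a probe set, likewise averaged 2.61 to 2.73 by age, and 1 of its genes passed the filter. The macrophage marker list, described further on, averaged 4.85 at 4 weeks and 6.24 at 20 weeks. Within ages its correlation with C5ar1 was -0.27 over 26 arrays, not past adjustment (adjusted permutation p = 0.49).

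**Figure D3:**
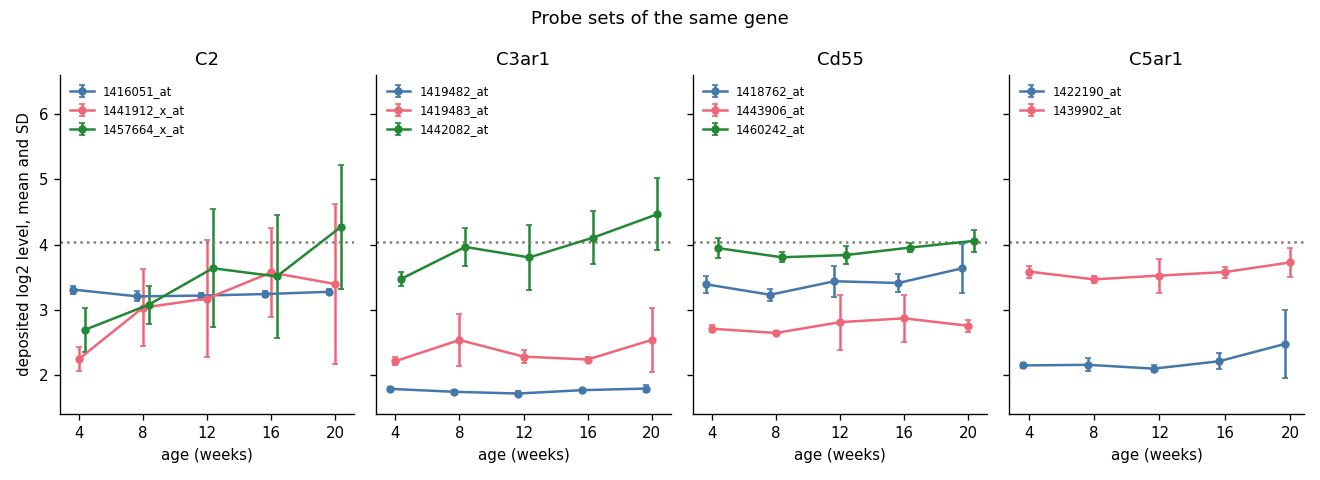
Mean and SD of the deposited log2 level (vertical axis) by age in weeks (horizontal axis) for every probe set of the 4 genes that have more than 1, with the near-background limit dotted. In C2 and C3ar1 the differences between ages were seen in some probe sets and not in others.

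When every probe set was tested in its own right (20110 probe sets), the F test of limma called 0 of 10 members' probe sets, where 14.9% of all were called. At an unadjusted p under 0.05 the count was 3 of 10, beside 7564 of all 20110. Between 20 and 4 weeks limma called 1 of 10, the C3ar1 probe set 1442082_at (adjusted p = 0.0458), against 3.11% of all. Without the pair it called 1 of 10 in the F test (18.7% of all) and 3 of 10 between 20 and 4 weeks (7.85% of all). Those 3 were the brightest probe sets of C2, Serping1 and C3ar1.

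Variation between arrays of the same age was described by each array's deviation from its age mean, with p from 100000 permutations within ages (two-sided). Among the 21 pairs of members, 2 passed adjustment. C1ra and Serping1 varied together (r = 0.71, rho = 0.73, n = 26; adjusted permutation p = 0.0119 and 0.00819), with r = 0.71 without the pair and 0.62 without the 2 arrays farthest from the median in C1ra. At 20 weeks, for example, replicates 3 and 5 were the highest for both genes, at 4.62 and 5.04 for C1ra and 6.52 each for Serping1. C1r is a target of C1 inhibitor, so the 2 genes encode an enzyme and its inhibitor. C1ra lay above the near-background limit on only 7 arrays. The correlation with the array SD was 0.38 for C1ra, not past adjustment, and 0.67 for Serping1. The part of array spread in the correlation of C1ra with Serping1 was not tested. Cd55 and C5ar1 also varied together (r = 0.80, rho = 0.87, n = 26; adjusted permutation p = 0.00042 and 0.00021), with r = 0.78 without the pair and 0.79 without the 2 farthest arrays. The raw permutation p of that rho, 1e-05, is the smallest the permutations can give. C5ar1 was near background on every array and Cd55 on all but 4, and their deviations ran against the spread of the array (r = -0.68 and -0.50 with the array SD). The part of array spread in their correlation was not tested.

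**Figure D4:**
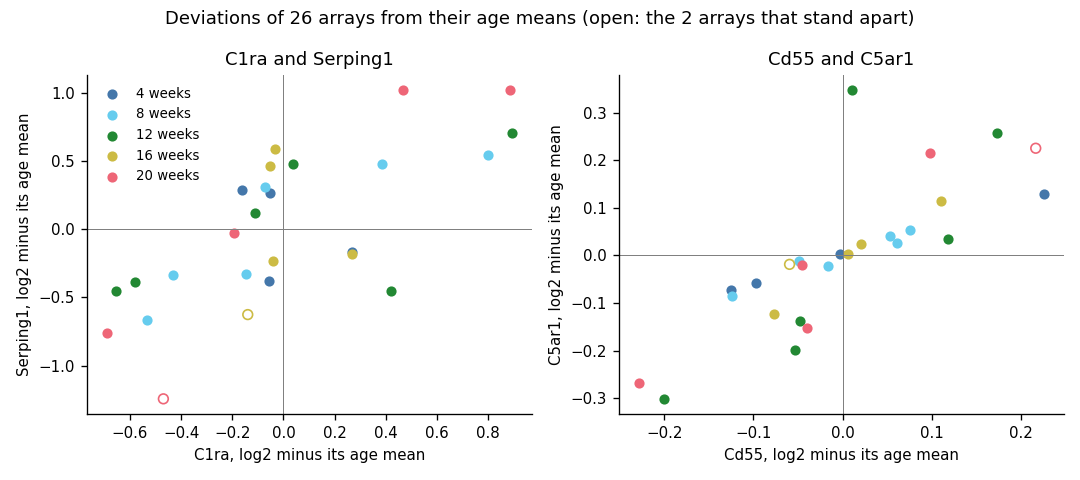
Deviation of each array from its age mean (log2, both axes) for C1ra and Serping1 (left) and for Cd55 and C5ar1 (right), coloured by age, with the 2 arrays that stand apart as open points. The points of both panels run from lower left to upper right, with r = 0.71 and 0.80 over 26 arrays.

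Marker lists of cell types are given here beside the members. In whole glands, more cells of a type and more RNA per cell cannot be told apart. The macrophage list (15 genes with a probe set, 14 of them tested) averaged 4.85 at 4 weeks (4.64 to 5.21), 6.37 at 8 weeks (5.93 to 6.76), 6.32 at 12 weeks (5.90 to 6.53), 6.09 at 16 weeks (5.31 to 6.61) and 6.24 at 20 weeks (4.96 to 6.92). Between 20 and 4 weeks 6 of 14 rose on all arrays (9 at an unadjusted p under 0.05), and 10 of 14 rose without the pair. Among them Csf1r, the receptor for macrophage colony-stimulating factor, rose by 2.02 ± 0.41 log2 (limma adjusted p = 0.0114). Within ages, Serping1 followed the macrophage list (r = 0.68, rho = 0.55, adjusted permutation p = 0.0244 and 0.0763 over 56 relations), with r = 0.50 without the pair and 0.54 without the 2 arrays farthest in the list mean. It followed the list of lacrimal and exocrine epithelium as closely (r = 0.68, rho = 0.63, adjusted permutation p = 0.0084 and 0.0246; r = 0.53 without the pair and 0.56 without the 2 farthest arrays) and the array SD as well (r = 0.67, rho = 0.54, adjusted permutation p = 0.0127 and 0.0763; r = 0.47 without the pair and 0.52 without the 2 farthest arrays). For C2, C3ar1 and C1ra the correlation with the macrophage list was 0.52, 0.52 and 0.50, none past adjustment (adjusted permutation p = 0.108, 0.129 and 0.115; r = 0.42, 0.50 and 0.51 without the 2 farthest arrays). Without the pair it was 0.40, 0.50 and 0.52. For the same genes r was 0.54, 0.25 and 0.38 with the array SD. With the epithelial list it was 0.50, 0.20 and 0.40, and none of these passed adjustment either. The part of cell numbers in these values was not tested.

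The fibroblast list had its highest mean at 4 weeks, 5.65 (5.27 to 6.34), its lowest at 16 weeks, 4.96 (4.65 to 5.14), and stood at 5.33 at 20 weeks (4.63 to 5.65). Of its 10 genes tested 1 was called between 20 and 4 weeks, Col1a1, a collagen chain gene, which fell (-1.06 ± 0.23, limma adjusted p = 0.0160). The liver list, whose tissue makes most plasma complement, averaged 3.08 to 3.29, and Alb, its defining gene, was read at 2.12 to 2.39 on all 26 arrays. The T cell list averaged 2.91 to 3.04. The endothelial list averaged 3.13 to 3.22. The adipose list averaged 3.53 at 4 weeks and 4.84 at 16 weeks, and the salivary gland list 9.06 at 4 weeks and 10.71 at 12 weeks. With both of those lists as covariates limma called 0 of 7 members in every comparison, as it did on all arrays without covariates. With these covariates 909 of all genes were called in the F test and 165 between 20 and 4 weeks. The epithelial markers of the labelled tissue averaged 8.23 to 9.35, with the water channel Aqp5 at 9.62 to 11.29 by age.

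Some complement genes are known to be induced by interferon gamma, and its part in the levels of the 7 members was not tested. The interferon gamma list (17 genes with a probe set, 14 tested) averaged 3.95 at 4 weeks and between 4.32 and 4.58 at the later ages. Between 20 and 4 weeks limma called 0 of 14 on all arrays (3 at an unadjusted p under 0.05) and 2 of 14, both higher, without the pair. Irf1, a transcription factor of that response, differed by 0.78 ± 0.26 (limma adjusted p = 0.135). The array with the highest list mean was 16 weeks replicate 2, at 5.66. It was also the highest of its age for C2 (5.04), C3ar1 (4.52) and C1ra (3.83). For Cfb (3.54), Cd55 (3.88) and C5ar1 (3.46) it was the lowest of its age, and Serping1 read 4.82, the median at 16 weeks. The same array was also the highest of its age in the macrophage (6.61), epithelial (9.04), adipose (6.46) and salivary gland (10.47) list means. Its array SD, 2.13, was the highest of that age too, while its T cell (2.88) and B cell (2.59) list means were the lowest. The part of any of these in its values was not tested. Over all 26 arrays the correlation of deviations with this list was 0.41 for C2 and 0.15 for Serping1, neither past adjustment (rho = 0.32 and 0.23; adjusted permutation p = 0.218 and 0.615 for r, 0.349 and 0.498 for rho). Without the 2 arrays farthest in the list mean r was 0.25 for C2 and 0.17 for Serping1. For the other members r over all 26 arrays was 0.24 (C1ra), -0.02 (Cfb), 0.09 (C3ar1), -0.06 (Cd55) and -0.04 (C5ar1). None of these passed adjustment either (adjusted permutation p from 0.416 to 0.963). The NF-kB and acute phase list (15 tested) averaged 4.87 at 4 weeks and 5.35 to 5.43 at the later ages, with 1 of 15 higher at 20 weeks than at 4 weeks on all arrays and 4 of 15 without the pair.

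Of the other complement genes, 46 were listed, 36 had a probe set of their own, 22 were tested and 10 had a mean above the near-background limit at any age. Between 20 and 4 weeks 3 of 22 rose (5 at an unadjusted p under 0.05), and without the pair 4 of 22 rose. Those 3 were C1qb (2.81 ± 0.49), C1qc (2.60 ± 0.57) and Clu (2.56 ± 0.28), with limma adjusted p of 0.00345, 0.0196 and 1.28e-05, and C1qa joined them without the pair. Clu encodes clusterin, an inhibitor of the terminal pathway. C1qbp, a C1q-binding protein, was called in the F test (adjusted p = 0.0387), with means of 9.09 at 4 weeks, 9.93 at 12 weeks and 8.81 at 20 weeks. C1s1, the protease that C1r activates, was not called and averaged 4.16 at 4 weeks and 4.66 at 20 weeks (0.50 ± 0.36, limma adjusted p = 0.553). Cfp, properdin of the alternative pathway, was not called either and averaged 3.79 and 4.62 (0.83 ± 0.36, limma adjusted p = 0.272). Cfd was not analysed here.

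The genes whose levels followed each member most closely over the 26 arrays are given as a description. For Serping1 they were Fcer1g (r = 0.76), Ubl7 (0.76) and Apod (0.75), of which Fcer1g is on the macrophage list. For C3ar1 they were Fcrls (0.77), Cp (0.74) and Basp1 (0.71), and for C1ra Nfkbil1 (0.68), Ace (0.67) and Rbck1 (0.67). C2 was followed by Adcy7 (0.88), Gnb4 (0.87) and AU021092 (0.81). Cfb was followed by Nxpe3 (0.89), St3gal6 (0.88) and Fam20c (0.88). Cd55 (Zfand4 0.97, Gsdma 0.97, Cdk2 0.97) and C5ar1 (Stfa2l1 0.94, Bora 0.93, Gm11342 0.93) had the closest matches of all, and of those 6 genes 5 had a mean level under 4.04.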

How the data were processed

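RNA of 26 lacrimal gland samples had been hybridised to Affymetrix arrays. The deposited values are log2 expression levels per probe set, one column per array. The submitters' processing notes name RMA and GCRMA without saying which gave these values, and versions are not given in the sources used here. Intensities and background flags were not used here, and the precision rests on how many arrays each age has.

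Probe sets were named from the platform annotation with symbols updated through RefSeq: 34958 of 45101 had 1 symbol, 932 several, and 9211 were not listed. Where a gene had several probe sets, the one brightest on average over all arrays stood for it. Of 18194 genes 12377 lay above the array median on at least 4 arrays and were tested with limma 3.58.1 in R 4.3.3 (lmFit, eBayes, one mean per age, no covariate), after a test on simulated data. P-values were adjusted by Benjamini-Hochberg over all genes tested. Correlations used Python with numpy 2.4.6.

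All members are named; of other complement genes those called in any comparison and set partners (among them C1s1, Cfd, Cfp and Clu); for likeness the 3 genes with the highest r, given for every member because none was called in the F test; and set markers (of these Lyz2 read 7.17 at 4 weeks and 9.48 at 20 weeks, Adipoq 2.22 and 2.87). The members, the lists and the alternatives were chosen with earlier results of these data known. No 2 arrays of an age held identical values. Same-numbered arrays of different ages did not deviate together (correlation -0.48 to 0.49, median -0.08, 47 pairs). The labels do not say whether glands were pooled. Alternatives were other scalings, filters, probe set choices, variance models, covariates, a replicate block and leaving out arrays.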

Additional observations from a re-analysis of the deposited data

Results flagged for a closer look

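Each of the 14 probe sets was examined in each of the 5 ages for a single array far from the others (the gap to the nearest array as a share of the age's range, by Dixon's 95% limits). Of 70 groups 10 stood out, where chance gives about 1 in 20. None of the 10 lay on either array that stands apart, and 1 lay above the near-background limit of 4.04.

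That 1 was Cfb at 12 weeks, replicate 4, at 4.24 against 3.65 to 3.69 on the other 5 arrays. On the same array the Cd55 probe set 1443906_at read 3.67 against 2.59 to 2.69.

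The others were near background. In C2, 1457664_x_at at 4 weeks had replicate 3 at 3.20 against 2.49 to 2.54, and 1416051_at at 16 weeks had replicate 5 at 3.16 against 3.24 to 3.27. Cfb at 8 weeks had replicate 3 at 3.77 against 3.67 to 3.69. C1ra at 16 weeks had replicate 2 at 3.83 against 3.42 to 3.53. The C3ar1 probe set 1419483_at at 20 weeks had replicate 5 at 3.39 against 2.24 to 2.45. The Cd55 probe set 1443906_at at 16 weeks had replicate 1 at 3.49 against 2.64 to 2.85. The C5ar1 probe set 1422190_at had replicate 3 at 2.42 against 2.12 to 2.20 at 16 weeks, and replicate 3 at 3.39 against 2.15 to 2.37 at 20 weeks.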

How the results depend on the processing

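The counts of members called were 0 on all arrays in each comparison of limma. In the F test the count became 1 without both arrays that stand apart, 1 with the array SD as a covariate and 4 with array weights, and 0 to 1 when single arrays were left out. The genes called in all were then 2577, 1889 and 8152, and 1380 to 2952 with single arrays left out. Between 20 and 4 weeks the count of members became 2 with quantile normalization, 1 with the filter at the 75th percentile, 1 without _x_at and _s_at probe sets, 3 without both arrays that stand apart, 3 with the array SD as a covariate and 3 with array weights, and 0 to 3 when single arrays were left out. In the same order, the genes called in all were 852, 353, 309, 1021, 1091 and 3473, and 73 to 722 with single arrays left out. Array weights also gave 3 between 8 and 4 weeks, 2 between 12 and 4 weeks and 1 between 16 and 4 weeks. In these comparisons they called 4557, 5373 and 3352 of all 12377 genes. The weights ran from 0.0875 to 10.9, their estimation stopped before convergence, and they called 8152 of 12377 genes in the F test. The other settings gave 0, among them centring on medians, no filter, the mean of all probe sets, a trended and robust variance, the actin difference, the adipose and salivary lists as covariates, and only the ages compared.

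With the replicate block the count of members called was 0 in every comparison. C2 changed its sign without _x_at and _s_at probe sets, to -0.10, -0.09, -0.07 and -0.03 at 8, 12, 16 and 20 weeks against 4 weeks, and between 20 and 4 weeks it differed by 0.90 with the mean of its probe sets. The adjusted p of C3ar1 in that comparison ran from 0.000114 to 0.297 over 13 settings. Counts of all genes called between 20 and 4 weeks were 273 on all arrays, 852 with quantile normalization, 1021 without the pair and 4 with only the arrays of both ages. Of the calls between 16 and 12 weeks 11.9% were higher, against 52.9% with quantile normalization, and of those between 12 and 4 weeks 79.7% against 65.0%. Most members lay near background, where a low signal limits what these arrays can measure.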
